A study of Mus musculus with 9 samples.

Results

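The 34 interferon-stimulated genes described here are a list given by symbol, written with earlier results of these data known. Every one was matched to 1 row among the 47729 genes of the count table. Polyadenylated RNA was sequenced from C2C12, a mouse myoblast cell line whose cells fuse into myotubes when growth serum is replaced by horse serum. The study compared 3 populations made for CRISPR-Cas9 knockout. WT cells received a guide RNA with no target, Per1KO cells were knocked out for Per1, and Per2KO cells for Per2. Each population gave 1 library on day 0, before differentiation, and 1 on each of days 3 and 5 after it was induced, which makes 9 libraries. The labels name no interferon, virus or nucleic acid treatment in any population, and do not say whether a knockout is 1 clone or a pool. They also name whole muscle as the tissue, although the growth protocol describes cultured cells.

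Interferons are secreted proteins that warn cells of infection. Type I interferons bind a receptor made of Ifnar1 and Ifnar2, the kinases Jak1 and Tyk2 then phosphorylate Stat2, which joins Irf9 in a complex that binds interferon-stimulated response elements in DNA. Irf1 and Irf7 bind related elements, whereas interferon gamma acts chiefly through the gamma-activated site. The induced genes encode sensors of viral RNA, proteins that block viral RNA or virus release, the ubiquitin-like protein Isg15 and its relatives, and parts of the machinery that shows peptides to T cells. Many of them keep a low level without any interferon.

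Promoters were examined first, since response elements there are how interferon signalling is known to reach its targets. RefSeq promoter windows (GRCm38.p6, 250 bases before to 50 bases after each start) were found for 26 of the 34 genes. The remaining 8 were Dhx58, Mx1, Mx2, Oas2, Parp14, Parp9, Rtp4 and Usp18. The core that interferon regulatory factors and the complex of Stat2 and Irf9 recognise, GAAANNGAAA on either strand, occurred in 12 of the 26 (46.2%) against 3.99% of the 27025 genes with a window and 3.44% of all 32851 windows. It occurred in Ifih1, Ddx58, Stat2, Ifit1, Ifit3, Oas1a, Oas3, Rsad2, Bst2, Isg15, Cxcl10 and B2m. The gamma-activated site, TTCNNNGAA, which reads the same on both strands, occurred in 7 of the 26 (26.9%) against 9.55% of genes and 8.30% of windows: Irf1, Ifit2, Isg20, Oas1a, Bst2, Ifi35 and Psmb8. Oas1a and Bst2 held both, and in Bst2 the gamma-activated site overlapped the first element. A match describes these letters in this window and is not evidence of binding.

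In all, 4 of the genes that changed with genotype or day in the tests below held the first element. The other genes that passed a test below, Xaf1, Dtx3l, Irf7, Ifit2, Isg20 and Irf1, have a window without it. Whether the element goes with change was not tested. The 200 bases before the start are shown for the 3 of the 4 in which the element lies there. Capitals mark each match of the element, overlapping matches forming 1 run. Ifit3 (chr19:34583329-34583528, plus strand) has 2 separate matches, B2m (chr2:122147487-122147686, plus strand) has 1, and Bst2 (chr8:71537473-71537672, minus strand) has 2 that overlap.
Ifit3: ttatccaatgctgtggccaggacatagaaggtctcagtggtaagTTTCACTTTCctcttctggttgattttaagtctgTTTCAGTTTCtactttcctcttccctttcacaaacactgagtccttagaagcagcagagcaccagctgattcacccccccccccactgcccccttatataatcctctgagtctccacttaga
B2m: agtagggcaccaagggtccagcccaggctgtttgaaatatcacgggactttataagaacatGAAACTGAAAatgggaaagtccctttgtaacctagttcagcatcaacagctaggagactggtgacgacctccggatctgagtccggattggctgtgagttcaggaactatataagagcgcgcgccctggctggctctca
Bst2: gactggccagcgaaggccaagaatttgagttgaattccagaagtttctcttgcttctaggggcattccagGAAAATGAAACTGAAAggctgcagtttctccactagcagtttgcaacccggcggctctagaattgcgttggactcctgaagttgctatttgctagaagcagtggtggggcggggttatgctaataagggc
Ddx58 is the other of the 4, and its single match, TTTCGATTTC, lies just after the start. Isg15, which passed no test, holds 3 matches that overlap in a chain, GAAAAGGAAA, GAAACCGAAA and GAAACAGAAA, which start 78, 72 and 66 bases before the start of the gene.

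Facts of the series bear on every comparison with WT. Total counts were 5020385 to 6773320 in WT and 41997763 to 48051824 in the knockouts, a ratio of mean totals of 7.82. Only the WT titles carry a lane suffix, and the knockout titles name no lane. Depth, any difference in lane, and genotype thus cannot be told apart. Levels are given as CPM, edgeR's unit for a count relative to the library total, here with totals scaled by its trimmed-mean factors (TMM). At 0 counts the upper limit, taken as 3 counts, lay at 0.423 to 0.659 CPM in WT and 0.0590 to 0.0730 CPM in the knockouts. Per1 stood at 35.5, 33.7 and 30.96 CPM in WT on days 0, 3 and 5, at 20.8, 32.4 and 28.9 CPM in Per1KO, and at 16.4, 30.4 and 32.9 CPM in Per2KO. Per2 was at 9.73, 11.5 and 20.4 CPM in WT, 6.58, 9.43 and 10.6 CPM in Per1KO, and 3.50, 9.11 and 8.37 CPM in Per2KO. Per2 was lowest in Per2KO on every day, though close to Per1KO on day 3, and Per1 was lowest in Per1KO only on day 5. The mRNA of the targets thus did not clearly set one knockout apart from the other, and the populations are named as labelled. All 8 myoblast markers were detected in every library (summed 3856 to 10789 CPM). Of 12 macrophage and dendritic cell markers, Cd14 and Cd68 passed the filter, the list summed to 7.08 to 15.8 CPM, and Adgre1, Itgax, Siglech and Tyrobp had 0 counts in every library. T, B and NK cell markers summed to at most 0.504 CPM, endothelial markers to 0.972 to 3.74 CPM and adipocyte markers to at most 0.0590 CPM. In bulk RNA, fewer cells of a type and less RNA per cell cannot be told apart.

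Most counts of the list came from 1 gene. B2m, the invariant light chain of MHC class I, ranged from 264 to 471 CPM, while the other 33 genes together summed to 134 to 232 CPM per library. Per kilobase of transcript, B2m had a mean level of 447 CPM, followed by Irf1 at 16.5, Ifi35 at 14.8, Bst2 at 9.59, Ifit2 at 7.78 and Isg20 at 6.05 CPM per kilobase. At the other end were genes that interferon is known to induce strongly. In all 9 libraries together, Oas2 had 4 counts, Psmb9 8, Cxcl10 16, Mx1 17, Oas1a 24, Oas3 26, Ifi44 32, Psmb8 35 and Oasl1 40. Between 25 and 27 of the 34 genes had at least 1 count in a WT library, and between 28 and 34 in a knockout library, at unequal depth.

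**Figure D1:**
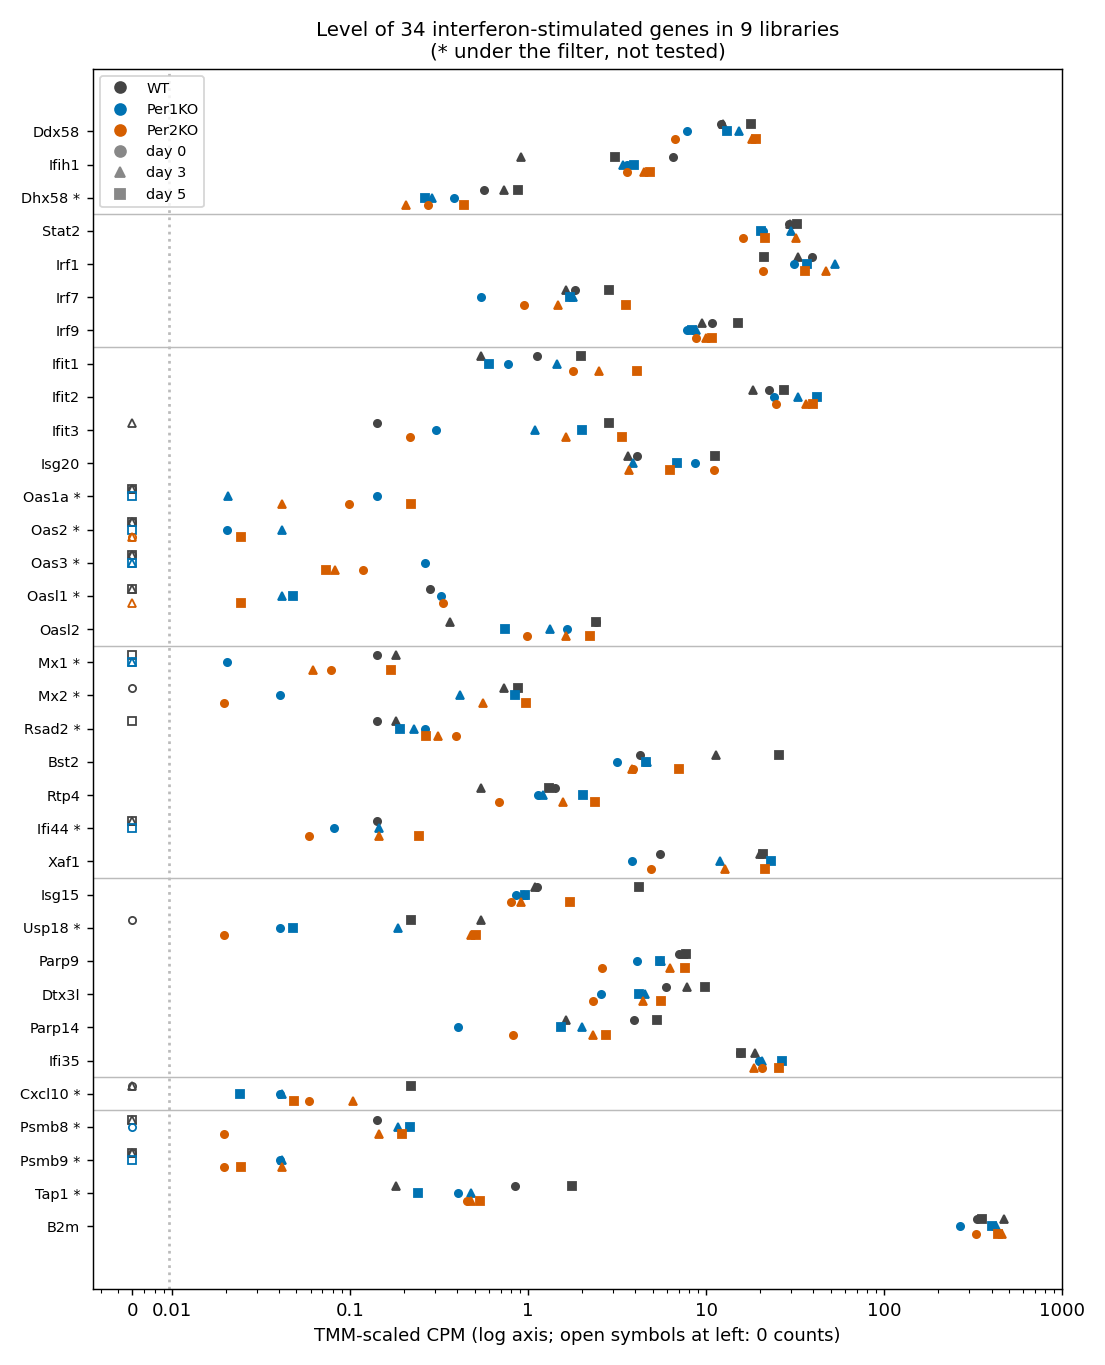
TMM-scaled CPM (log axis) of the 34 genes, 1 symbol per library, with colour for genotype, shape for day and open symbols for 0 counts. Levels run from 0 to 471 CPM, B2m lies far to the right of all others, and the 14 genes marked with an asterisk stay mostly under 1 CPM.

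A gene was tested if it reached 1 CPM in at least 3 of the 9 libraries, which it could do through the days or the genotype where it was high. Of the 34 genes, 20 passed. The other 14 (Dhx58, Oas1a, Oas2, Oas3, Oasl1, Mx1, Mx2, Rsad2, Usp18, Ifi44, Cxcl10, Psmb8, Psmb9 and Tap1) summed to 1.87 to 3.95 CPM per library, from 14 to 18 counts in WT and 78 to 154 in the knockouts. Differences were tested with edgeR's quasi-likelihood test in an additive model of genotype and day, with Benjamini-Hochberg adjustment over all 13324 genes tested and a threshold of 0.05 on the adjusted p. A gene that is said to pass, to be called or to change did so in this edgeR fit, unless another test is named. With 1 library per population and day, the days stand in as replicates of a genotype and the populations as replicates of a day, so the p-values measure the spread between these libraries and not between independent cultures or clones.

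The first comparison was of each knockout with WT over the 3 days. Bst2, a membrane protein that tethers budding virus particles to the cell surface, and Dtx3l, a ubiquitin ligase that works as a pair with Parp9, were lower in both knockouts. In Per1KO, 0 of 20 genes were higher and 2 lower, where 9.26% of all genes tested were higher and 10.1% lower. In Per2KO, likewise 0 were higher and 2 lower, where 9.31% were higher and 10.6% lower. Those shares of the 20 are close to the background or below it. At an unadjusted p under 0.05, Per1KO had 2 higher and 5 lower genes and Per2KO had 1 and 3. Of all 13324 genes, 2216 were higher and 2445 lower at that cut in Per1KO, and 2221 and 2460 in Per2KO. Isg15, 1 of the 5 lower in Per1KO, reached 1 CPM in every WT library and in no Per1KO library. Its difference is thus not independent of the filter. DESeq2 also called Ifit2 higher in each knockout and Parp14 lower in Per1KO, where it called 3396 and 3461 of all genes in either direction. The median log2 fold change over the 20 was -0.35 in Per1KO and -0.08 in Per2KO, beside -0.02 and -0.01 over all genes. Both knockouts were set against the same WT libraries, so the likeness of their values is not independent.

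Bst2 stood at 4.23, 11.3 and 25.7 CPM in WT on days 0, 3 and 5. It was at 3.14, 4.67 and 4.60 CPM in Per1KO and at 3.89, 3.82 and 7.03 CPM in Per2KO. The WT libraries of days 3 and 5 were above all 6 knockout libraries, while the WT library of day 0 lay among them. Averaged over the days, Bst2 differed from WT by -1.50 ± 0.38 (log2 fold change ± SE) in Per1KO (adjusted p = 0.0294) and by -1.30 ± 0.37 in Per2KO (adjusted p = 0.0447). The call did not hold without day 5 (adjusted p = 0.254 and 0.261), without day 3 (0.143 and 0.245) or with only the 6 libraries of the pair (0.0699 and 0.0893), and in Per2KO it also failed with no filter (0.0587).

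Dtx3l was at 5.92, 7.83 and 9.88 CPM in WT, 2.55, 4.51 and 4.20 CPM in Per1KO, and 2.30, 4.42 and 5.54 CPM in Per2KO. Every WT library was above every knockout library, though WT on day 0 lay only just above Per2KO on day 5. All 3 populations were lowest on day 0, but the WT values rest on nearly equal counts of 42, 43 and 45. Per1KO differed from WT by -1.08 ± 0.20 (log2, adjusted p = 0.00861) and Per2KO by -0.998 ± 0.20 (adjusted p = 0.0116). It was past the threshold in neither knockout without day 3 (0.0642 and 0.0868) or without day 5 (0.110 and 0.0853), and in Per2KO it also missed with only the 6 libraries of the pair (0.0571). Dtx3l (chromosome 16, 35926511 to 35939151, minus strand) overlaps Parp9 (35938470 to 35972605, plus strand), and whether the counting used strand is not given in the sources used here, so reads from the overlap could belong to either gene.

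**Figure D2:**
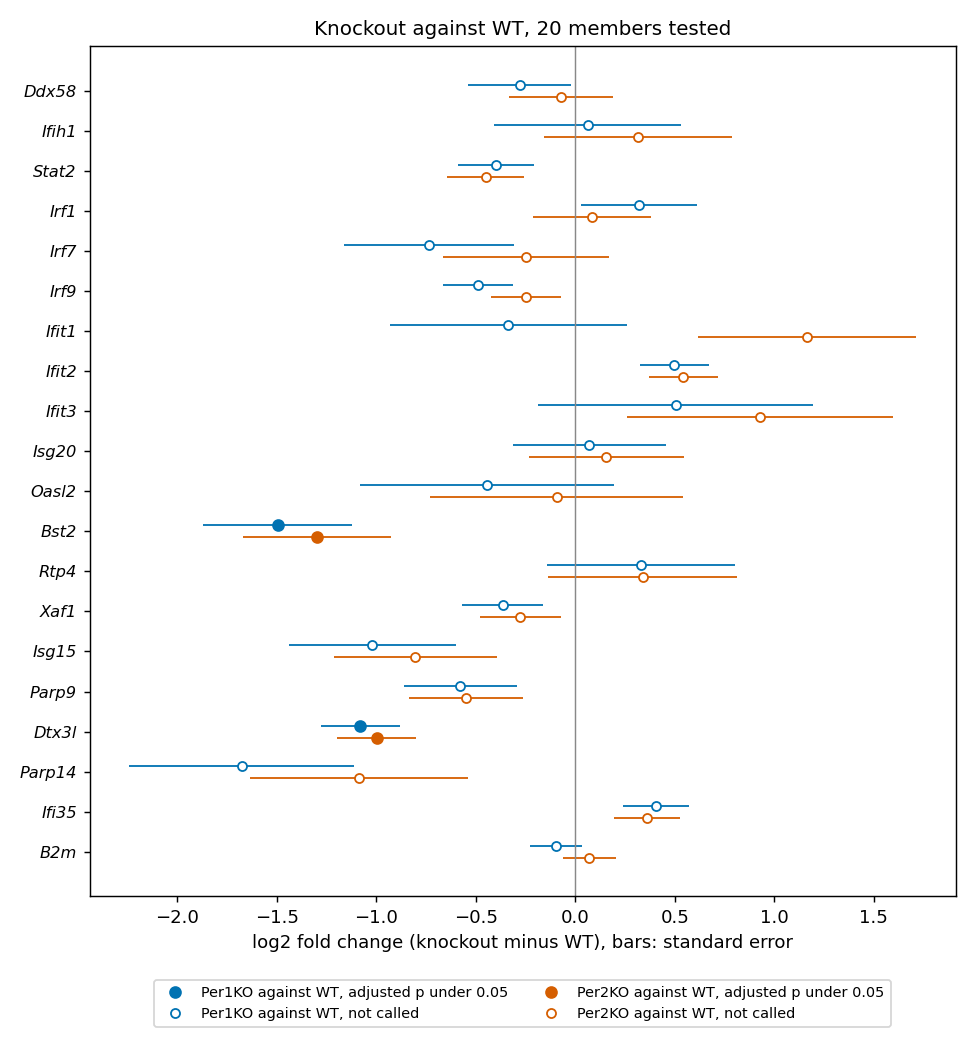
Log2 fold change of each knockout against WT (x axis) for the 20 genes tested, with bars of 1 standard error and filled symbols for an adjusted p under 0.05. Bst2 and Dtx3l carry the filled symbols, between -1.50 and -0.998, and the others spread to both sides of 0.

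A direct comparison of Per1KO with Per2KO is free of the depth gap. It gave 0 calls among the 20 genes with edgeR, 0 with DESeq2, and 0% of all genes tested. At an unadjusted p under 0.05 there was 1 of the 20, beside 88 of all 13324 genes. It was Ifit1, which binds viral RNA that lacks the cap methylation of host mRNA. Ifit1 was at 0.769, 1.45 and 0.600 CPM in Per1KO and at 1.79, 2.50 and 4.06 CPM in Per2KO, so that every Per2KO value was above every Per1KO value. In WT it was at 1.13, 0.546 and 1.98 CPM, from 3 to 9 counts. Its log2 difference (Per1KO minus Per2KO) was -1.50 ± 0.42, with an unadjusted p of 0.00728 and an adjusted p of 1.00. The median over the 20 genes was -0.18, with 17 negative and 3 positive. Over all 13324 genes it was 0.01, with 6346 negative and 6978 positive. Whether the signs of the 20 differ from that background was not tested.

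Differentiation was the second comparison. On day 5 against day 0, 8 of the 20 genes rose and 0 fell, where 23.2% of all genes tested rose and 22.9% fell. The 8 were Xaf1, Ifit3, Dtx3l, Irf7, Ddx58, Ifit2, Bst2 and B2m. Of these, Ifit3 passed the filter only through libraries of the later days. At an unadjusted p under 0.05, 12 of the 20 were higher and 0 lower, beside 3606 and 3628 of all 13324 genes tested. DESeq2 called 9 higher and 0 lower, and 6574 of all genes in either direction. On day 3 against day 0, 5 rose (Xaf1, B2m, Dtx3l, Ifit3 and Ddx58) and 1 fell (Isg20), against a background of 18.1% and 16.9%. The median log2 fold change over the 20 genes was 0.54 on day 3 and 0.69 on day 5, where that of all genes was -0.01 on both days. Both days were compared with the same day 0 libraries. Between days 3 and 5, edgeR called 0 of the 20 and DESeq2 0, where 1.79% of all genes passed. Ifit3, Isg20 and Xaf1 were higher on day 5 than on day 3 at an unadjusted p under 0.05. At that cut 944 of all 13324 genes were higher and 1031 lower.

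How many genes passed depended on the populations in the fit. Without Per1KO or without Per2KO, Xaf1 alone passed on day 3, and Xaf1 and Ifit3 on day 5. Without WT, 12 passed on day 3 and 14 on day 5. The background moved as well: 4664 of all 13324 genes passed on day 3 in the full fit, 1147 without Per1KO and 7684 without WT. On day 5 these counts were 6149, 2348 and 8586.

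**Figure D3:**
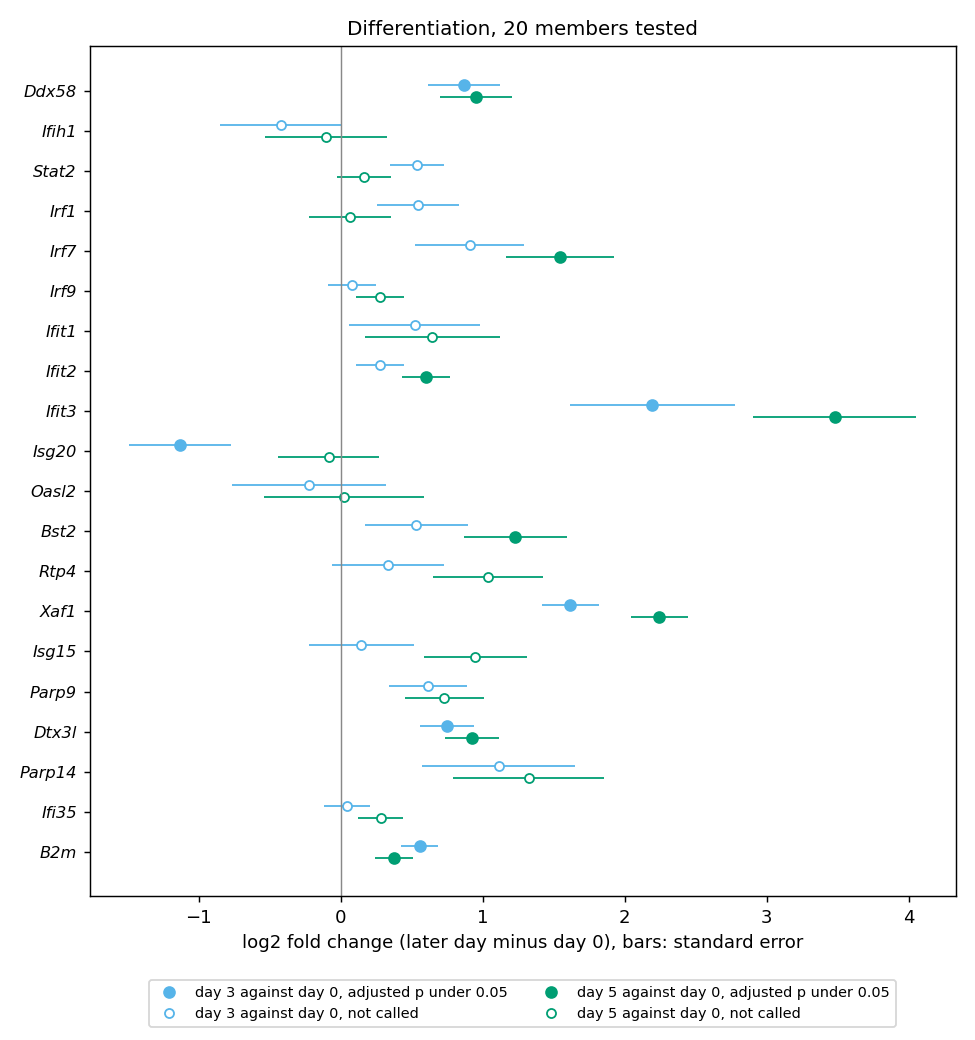
Log2 fold change of days 3 and 5 against day 0 (x axis) for the 20 genes tested, with bars of 1 standard error and filled symbols for an adjusted p under 0.05. Ifit3 and Xaf1 lie farthest to the right at 3.48 and 2.24 on day 5, and Isg20 is the filled symbol left of 0, at -1.13 on day 3.

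Sensors of viral RNA came first in the order of roles. Ddx58 encodes RIG-I, which recognises short RNA with a triphosphate end. It was at 12.1, 12.4 and 17.8 CPM in WT on days 0, 3 and 5, at 7.78, 15.3 and 13.1 CPM in Per1KO, and at 6.68, 18.1 and 19.1 CPM in Per2KO. In each population day 0 was lowest, though in WT days 0 and 3 hardly differed (86 and 68 counts). The log2 fold change was 0.87 ± 0.25 on day 3 (adjusted p = 0.0320) and 0.95 ± 0.26 on day 5 (0.0173). It missed the threshold without Per1KO (0.245 and 0.0974) or Per2KO (0.282 and 0.165). On day 3 it also missed with the libraries of days 0 and 3 alone (0.0824). Ifih1, or MDA5, which recognises long double-stranded RNA, was at 6.49, 0.911 and 3.07 CPM in WT, 3.60, 3.41 and 3.91 CPM in Per1KO, and 3.60, 4.46 and 4.84 CPM in Per2KO. The knockout values lay close together, while WT ran from the highest value to the lowest, the latter from 5 counts. Ifih1 was not called by edgeR, with a log2 difference of 1.97 ± 0.52 and an adjusted p of 0.0785 in the test of differing responses described below. In that test it was called by DESeq2, by edgeR with no filter, and by edgeR without day 5. Dhx58, or LGP2, a helper of Ifih1, had 4 counts in each WT library and 10 to 19 in the knockouts.

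Of the transcription factors, Irf7 rose and Irf1 differed in its course between WT and the knockouts. Irf7, which amplifies the type I response, was at 1.83, 1.64 and 2.85 CPM in WT (9 to 13 counts), 0.547, 1.78 and 1.73 CPM in Per1KO, and 0.943, 1.47 and 3.55 CPM in Per2KO. Its day 5 value exceeded that of day 0 in every population. In WT, however, both values rest on 13 counts and differ only through the scaled library totals. Their Clopper-Pearson intervals overlap, at 0.976 to 3.13 CPM on day 0 and 1.52 to 4.88 CPM on day 5. The fitted day 5 change over the populations was 1.54 ± 0.38 (log2, adjusted p = 0.0119). That call was lost without Per1KO (0.0928) or Per2KO (0.170). Stat2, a subunit of the complex that type I interferon activates, was at 29.3, 29.7 and 32.3 CPM in WT, 20.9, 29.7 and 20.2 CPM in Per1KO, and 16.1, 32.1 and 21.5 CPM in Per2KO. Its knockout values peaked on day 3 and its WT values hardly moved, and edgeR did not call it, with an adjusted p of 0.0601 on day 3. DESeq2 called its rise on day 3, as did edgeR without WT. Irf9, which carries that complex to DNA, ranged from 7.84 to 15.2 CPM and was not called by edgeR either.

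Irf1, a factor that responds chiefly to interferon gamma, was below its day 0 level on later days in WT and above it in both knockouts. It was at 39.2, 32.8 and 21.1 CPM in WT on days 0, 3 and 5, at 31.2, 52.9 and 37.0 CPM in Per1KO, and at 20.9, 46.8 and 35.8 CPM in Per2KO. The WT library was the highest of the 3 on day 0 and the lowest on days 3 and 5. Whether the change from day 0 to the later days differed was tested as an interaction of either knockout with day 3 or 5. The mean change was 0.74 (log2) in the knockouts and -0.58 in WT, a fitted difference of 1.30 ± 0.25 (adjusted p = 0.0331). It stayed past the threshold without Per1KO (0.0327) and without day 5 (0.0119), and was lost without Per2KO (difference 1.08, adjusted p = 0.227) and without day 3 (1.40, 0.0778).

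Irf1 was the 1 gene of the 20 called in that interaction. Differences are signed, as the log2 change in the knockouts minus that in WT. Of all genes tested, 3.5% passed with a positive difference and 1.45% with a negative one. Negative differences were called for 0 genes of the list by edgeR and for Bst2 and Isg20 by DESeq2. DESeq2 called positive ones for Irf1 and Ifih1, and called 1464 of all genes in either direction. At an unadjusted p under 0.05 with edgeR, Bst2 and Isg20 were negative, and Irf1, Ifih1, Parp14 and Ifit2 positive. At that cut 1699 of all 13324 genes were positive and 1432 negative. Ifih1 changed by 0.19 in the knockouts and -1.95 in WT, and Isg20 by -0.97 and 0.64. The median difference over the 20 was 0.49, beside 0.01 over all genes. Depth and lane separate WT from the knockouts here too, and their part in the difference cannot be told apart from genotype.

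Effectors that act on RNA followed different courses. Ifit2, a partner of Ifit1 that also binds RNA, was the most abundant per kilobase among them. It was at 22.4, 18.4 and 27.2 CPM in WT, 24.1, 32.6 and 41.7 CPM in Per1KO, and 24.6, 36.4 and 40.0 CPM in Per2KO. Each later day was higher in both knockouts, whereas WT was lowest on day 3. The day 5 change was 0.60 ± 0.17 (adjusted p = 0.0207), and it missed the threshold without Per1KO (0.246) or Per2KO (0.156). Against WT, Ifit2 was higher in all 3 library pairs of each knockout, by 0.50 ± 0.17 (adjusted p = 0.0812) and 0.54 ± 0.17 (0.0628), which did not pass.

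Ifit3, which stabilises Ifit1 on RNA, had the largest fitted rise of the 20 genes on both days. It reached 1 CPM in 5 libraries, none of them of day 0. It thus entered the test only through the later days, and its rise is not independent of the filter. It was at 0.141, 0 and 2.85 CPM in WT (1, 0 and 13 counts), 0.304, 1.10 and 2.01 CPM in Per1KO, and 0.216, 1.63 and 3.36 CPM in Per2KO. All populations were highest on day 5, and the knockouts were already above their day 0 level on day 3. The log2 fold change was 2.19 ± 0.58 on day 3 (adjusted p = 0.0227) and 3.48 ± 0.57 on day 5 (0.00198). Without Per1KO or Per2KO the day 3 call was lost (0.172 and 0.327). Ifit3 shares 61.8% of the 31-base words of its longest transcript with Ifit3b, which had at most 14 counts in any library, so its count is uncertain to the extent that the authors' counting split or dropped shared reads.

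Isg20, an exonuclease that degrades single-stranded RNA, was the gene that fell on day 3. Its level was 4.09, 3.64 and 11.2 CPM in WT, 8.61, 3.87 and 6.84 CPM in Per1KO, and 10.99, 3.68 and 6.30 CPM in Per2KO. The 3 day 3 libraries agreed within 3.64 to 3.87 CPM, whereas on day 0 the knockouts were above WT and on day 5 below it. The day 3 change was -1.13 ± 0.36 (adjusted p = 0.0427), and without Per1KO or Per2KO the adjusted p was 0.276 or 0.296. The oligoadenylate synthetases, which make the messenger that activates RNase L, had few or no counts. Oas1a, Oas2 and Oas3 had 0 counts in every WT library and at most 13 in a knockout library. Oas1a shares 68.1% of its 31-base words with Oas1g, which had 0 counts throughout. Oasl1, which restrains Irf7 translation, had 16 and 17 counts in the knockouts on day 0 and at most 2 on later days. Oasl2, a relative that binds RNA, ranged from 0.364 to 2.42 CPM and passed no test.

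Among the other antiviral effectors, Xaf1 had the lowest adjusted p of the whole list. It is a zinc finger protein known as an antagonist of inhibitors of apoptosis. Xaf1 was at 5.50, 20.04 and 20.9 CPM in WT, 3.85, 12.01 and 23.2 CPM in Per1KO, and 4.89, 12.7 and 21.4 CPM in Per2KO. Day 0 was lowest and day 5 highest in every population, and the 3 day 0 libraries lay below all 6 later ones. The log2 fold change was 1.62 ± 0.20 on day 3 (adjusted p = 0.000913) and 2.24 ± 0.20 on day 5 (0.000106), and it passed in each of the 7 alternative fits on each day. Bst2 also rose on day 5, by 1.23 ± 0.36 (adjusted p = 0.0256), and the WT values differed most between days. The difference in change between knockouts and WT was -1.54 ± 0.50 and did not pass (adjusted p = 0.124). The day 5 call was lost without Per1KO (0.0514), without Per2KO (0.0672) or with the libraries of days 0 and 5 alone (0.0770).

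Rtp4, a chaperone for receptors that interferon induces, ranged from 0.546 to 2.36 CPM and was called only without WT, on day 5. Mx2, a dynamin-like GTPase, was under the filter and had 0, 4 and 4 counts in WT, 2, 20 and 35 in Per1KO, and 1, 27 and 40 in Per2KO. Its counts were lowest on day 0 in every population. Mx2 is annotated as a polymorphic pseudogene and shares 11.8% of its 31-base words with Mx1, its relative, which had at most 7 counts. Rsad2, or viperin, which makes a chain-terminating nucleotide, had at most 20 counts, and Ifi44 at most 10.

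Isg15 and the enzymes of ubiquitin and ADP-ribose chemistry held 1 gene called by edgeR, Dtx3l. In addition to its lower level in the knockouts it rose by 0.75 ± 0.19 on day 3 (adjusted p = 0.0198) and 0.92 ± 0.19 on day 5 (0.00592), and both calls were lost without Per1KO (0.235 and 0.0685) or Per2KO (0.233 and 0.135). Parp9, its partner, was at 7.05, 7.47 and 7.69 CPM in WT, 4.11, 5.58 and 5.49 CPM in Per1KO, and 2.59, 6.28 and 7.56 CPM in Per2KO. The WT values changed little, and each knockout was lowest on day 0. Parp9 was not called by edgeR (adjusted p = 0.191 in Per1KO, 0.215 in Per2KO and 0.0610 on day 5), while DESeq2 called its rise on day 5. Ifi35, which forms a complex with Nmi, was at 15.5, 18.8 and 15.6 CPM in WT, 19.8, 20.5 and 26.8 CPM in Per1KO, and 20.6, 18.6 and 25.6 CPM in Per2KO, and was called only without WT, on day 5 against days 0 and 3.

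Isg15, a ubiquitin-like protein joined to new proteins, was at 1.13, 1.09 and 4.17 CPM in WT from 6 to 19 counts. It was at 0.850, 0.951 and 0.959 CPM in Per1KO and 0.806, 0.909 and 1.73 CPM in Per2KO. The WT library of day 5 stood above the 8 others, and no contrast passed (adjusted p = 0.126 in Per1KO and 0.204 in Per2KO). Isg15 reached 1 CPM in 4 libraries, those of WT and that of Per2KO on day 5. It thus entered the test mainly through WT, where it was high. Parp14, an ADP-ribosyltransferase, was at 3.95, 1.64 and 5.27 CPM in WT, 0.405, 2.01 and 1.53 CPM in Per1KO, and 0.826, 2.31 and 2.72 CPM in Per2KO. On day 0 the WT value was far above both knockouts, and on day 3 below them. The log2 difference from WT was -1.68 ± 0.57 for Per1KO (adjusted p = 0.0762) and -1.09 ± 0.55 in Per2KO (0.200) with edgeR. DESeq2 called Parp14 lower in Per1KO, as did edgeR without day 3. Usp18, the protease that removes Isg15 and restrains the receptor, was under the filter with 0 to 23 counts.

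**Figure D4:**
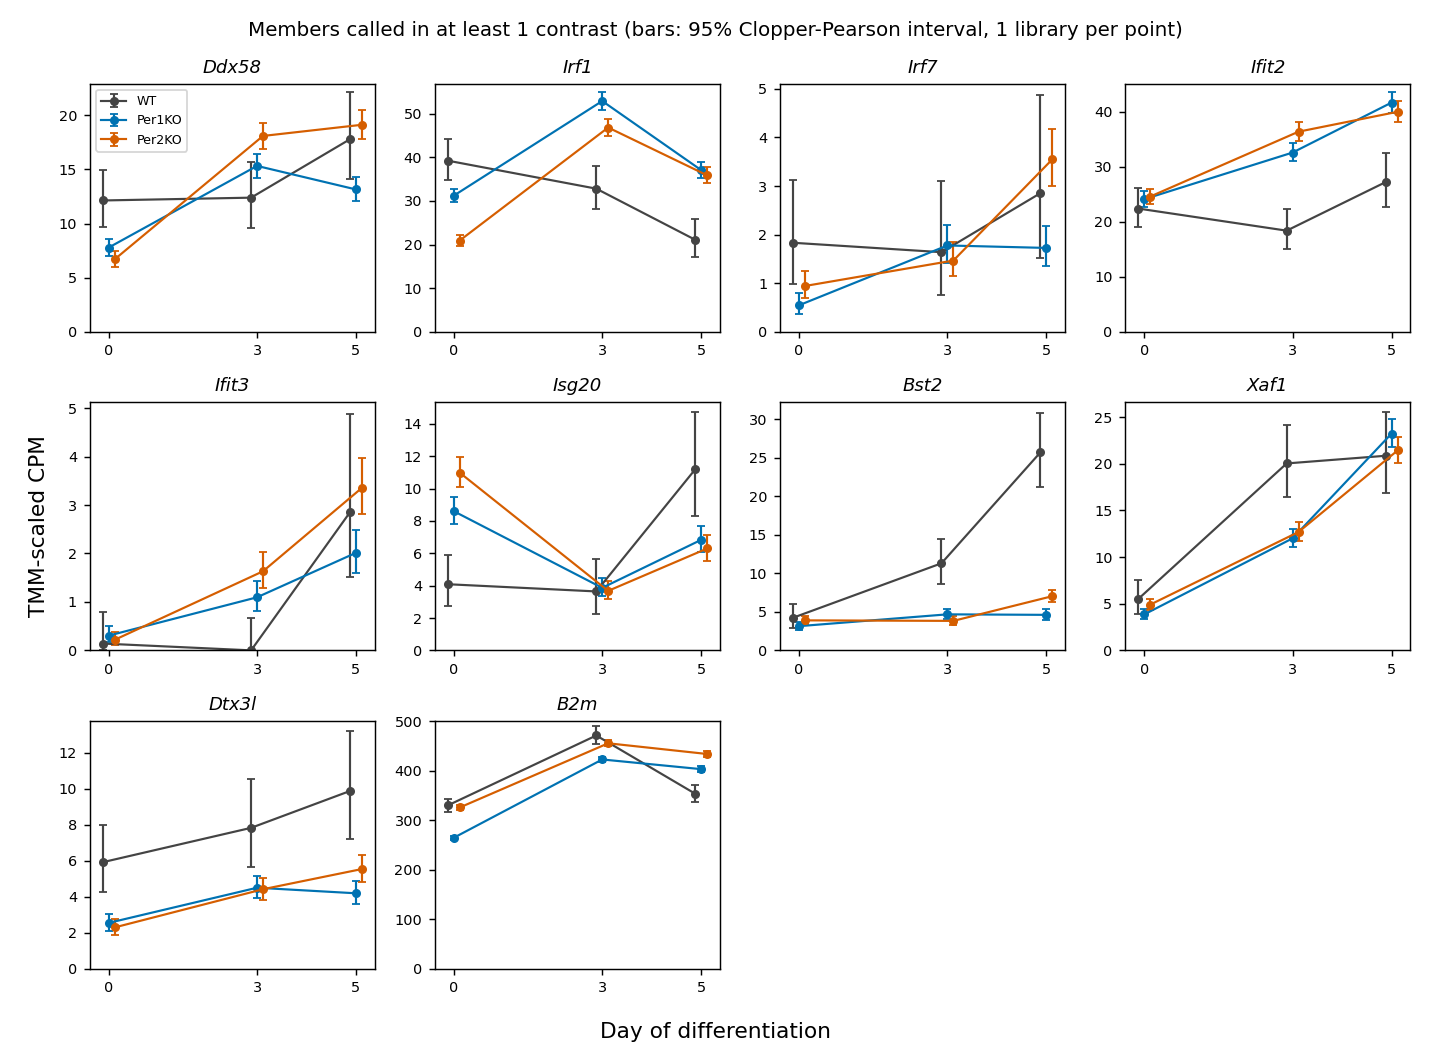
TMM-scaled CPM against day for the 10 genes called in at least 1 contrast, 1 line per population, with 95% Clopper-Pearson intervals that cover counting error only. Xaf1 is highest on day 5 in every population, Bst2 goes from 4.23 to 25.7 CPM in WT, and the Irf1 lines cross between day 0 and day 3.

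Cxcl10, the chemokine that draws T cells, had 16 counts in all and at most 5 in a library. Antigen processing was split between B2m and its induced helpers. B2m was at 329.8, 471 and 353 CPM in WT on days 0, 3 and 5, 264, 422 and 403 CPM in Per1KO, and 326, 455 and 434 CPM in Per2KO. Day 0 was lowest and day 3 highest in each population. The change was 0.56 ± 0.13 on day 3 (adjusted p = 0.0148) and 0.38 ± 0.13 on day 5 (0.0479). It did not pass without Per1KO (0.219 on day 3, 0.461 on day 5) or Per2KO (0.144 and 0.293), and on day 5 it also failed with the libraries of days 0 and 5 alone (0.102) and with no filter (0.0909). Against WT, B2m gave -0.10 ± 0.13 in Per1KO and 0.07 ± 0.13 in Per2KO, neither past the threshold. Tap1, a subunit of the pump that moves peptides into the endoplasmic reticulum, had 6, 1 and 8 counts in WT, 20, 23 and 10 in Per1KO, and 23, 23 and 22 in Per2KO. Psmb8 and Psmb9, catalytic subunits of the immunoproteasome, had at most 9 and 2 counts.

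Single libraries of the same day were then compared without a test, among genes with at least 1 CPM in either, and a difference of at least 2-fold was counted. On day 0, 1 of 19 genes was higher and 3 lower in Per1KO than in WT, where 17.2% of all genes differed, and 1 was higher and 4 lower in Per2KO, where 17.9% did. Isg20 was the higher one in both. On day 3, 5 of 20 were higher and 1 lower in Per1KO (17.9% of all genes) and in Per2KO (18.9%). The 5 were Ifih1, Ifit1, Ifit3, Oasl2 and Rtp4 in each case, and Bst2 was the lower one. In the WT library of day 3 these 5 rest on 0 to 5 counts each. None of them reached 1 CPM there, so they were compared only through the knockouts. On day 5, 0 of 21 were higher and 7 lower in Per1KO (20% of all genes), and 1 was higher and 3 lower in Per2KO (20.3%). The 7 were Bst2, Dtx3l, Parp14, Isg15, Oasl2, Ifit1 and Tap1, from 117, 45, 24, 19, 11, 9 and 8 WT counts. Bst2, Isg15 and Tap1 were the 3 in Per2KO, and Ifit1 was the higher one. Tap1 was compared only because it reached 1 CPM in the WT library, so its difference is not independent of that cut.

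Per1KO and Per2KO differed by at least 2-fold at 1 of 17 genes on day 0 (2.41% of all genes), 0 of 19 on day 3 (0.223%) and 3 of 20 on day 5 (0.553%). Ifit1 was the gene of day 0, and Ifit1, Irf7 and Oasl2 were those of day 5, each lower in Per1KO. On day 5, Ifit1 had 25 counts in Per1KO and 167 in Per2KO, with Clopper-Pearson intervals of 0.388 to 0.885 and 3.47 to 4.73 CPM. These differences have no replicate check.

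Upstream of the list, interferons themselves were hardly detected. None of the 21 ligand genes passed the filter. Ifnb1 had 0 counts in every library, and Ifng had at most 6 counts. Ifnar1, Ifnar2, Jak1 and Tyk2 were all detected, at 58.2 to 87.4, 18.2 to 32.3, 229.5 to 310.2 and 29.3 to 49.1 CPM. Of 11 receptor and relay genes 10 were tested, and Jak2 was higher in Per1KO (0.63 ± 0.17, adjusted p = 0.0367). Stat3 rose on day 3 (0.77 ± 0.21, 0.0259) and day 5 (0.93 ± 0.22, 0.00934), and no other gene of the relay passed a genotype or day contrast. Ifnar1, Ifnar2, Jak1 and Tyk2 were among those that did not. Of 23 sensing and adaptor genes 18 were tested. In Per1KO 2 were higher and 0 lower, in Per2KO 1 and 0, and on day 5 1 rose and 2 fell, with medians of 0.12, 0.13 and -0.17. On day 5 that compares with 23.2% and 22.9% of all genes, and for the knockouts with 9.26% and 9.31% higher. Tank, an adaptor of the kinase Tbk1, was higher in both knockouts (0.55 ± 0.12 and 0.68 ± 0.12), and Mb21d1, the DNA sensor cGAS, fell by 1.34 ± 0.22 by day 5 (adjusted p = 0.00181). Irf3, the factor that starts interferon transcription, stood at 32.1 to 40.4 CPM and passed no contrast.

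Among the negative regulators, all 9 tested, Per1KO had 0 higher and 1 lower gene and Per2KO had 1 and 3, with median log2 fold changes of -0.30 and -0.42. Nlrx1, a mitochondrial brake on RIG-I signalling, was lower in Per1KO (-2.24 ± 0.19, adjusted p = 0.000229) and Per2KO (-1.99 ± 0.19, 0.000374). The shares of all tested genes were 9.26% and 10.1% for Per1KO and 9.31% and 10.6% for Per2KO. On day 5, 4 of the 9 fell and 2 rose, where 22.9% of all genes fell and 23.2% rose. Ptpn6 fell by 2.40 ± 0.33 (adjusted p = 0.000842), Socs1, which blocks Jak kinases, fell by 1.97 ± 0.26 (0.000689) and Rnf125, which marks RIG-I for degradation, fell by 1.90 ± 0.28 (0.00108).

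A wider list of 69 other interferon-stimulated genes had 41 tested. In Per1KO, 0 were higher and 8 lower, and in Per2KO 0 and 5, beside the 10.1% and 10.6% of all genes that were lower. These included Ifi27 (-1.12 ± 0.12 and -0.96 ± 0.12) and Ifitm3 (-0.73 ± 0.13 and -0.69 ± 0.13), lower in both. At an unadjusted p under 0.05, 4 and 5 were higher, beside 2216 and 2221 of all 13324 genes tested, and 12 and 10 lower, beside 2445 and 2460. On day 5, 13 rose and 13 fell, beside 23.2% and 22.9% of all genes. Ifi27, Igtp and Samd9l rose by 1.49 ± 0.12, 1.88 ± 0.25 and 1.25 ± 0.17, while Ifitm1, Slfn9 and Plscr1 fell by 3.15 ± 0.33, 2.14 ± 0.24 and 1.56 ± 0.14 (all log2). The median over the 41 was -0.02 on day 5, where that of the 20 genes above was 0.69. In the interaction, Parp12 (1.45 ± 0.27, adjusted p = 0.0323), Samhd1 (1.03 ± 0.21, 0.0401) and Uba7 (3.61 ± 0.74, 0.0417) had a positive difference (knockouts minus WT), as Irf1 did.

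The classical heavy chains that pair with B2m were lower in both knockouts, where B2m itself passed neither test. Of 18 MHC class I and peptide loading genes, all tested, 7 were lower and 1, Erap1, was higher in each knockout, beside the 10.1% and 10.6% of all genes that were lower. The median log2 fold change was -0.42 in Per1KO and -0.46 in Per2KO. H2-K1 was at 75.2, 106 and 91.6 CPM in WT, 22.1, 22.2 and 19.7 CPM in Per1KO, and 25.1, 19.1 and 19.4 CPM in Per2KO. H2-D1 was at 67.5, 87.6 and 86.5 CPM in WT and between 21.5 and 25.9 CPM in the knockouts. No knockout library reached the lowest WT library for either gene. Their log2 fold changes were -2.09 ± 0.17 and -1.79 ± 0.12 in Per1KO and -2.10 ± 0.18 and -1.69 ± 0.12 in Per2KO, with Tap2, the partner of Tap1 in the peptide pump, at -1.92 ± 0.21 and -1.60 ± 0.21. H2-K1 and H2-D1 share 20.7% and 26.8% of their 31-base words with another gene, each mainly with the other, so a read could be assigned to either of the 2 genes. Nlrc5, which drives class I transcription, fell by 2.03 ± 0.28 by day 5 (adjusted p = 0.000803). The 3 constitutive proteasome subunits passed no genotype or day contrast, also not at an unadjusted p under 0.05.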

How the data were processed

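Polyadenylated RNA of 9 libraries was measured as read counts per Ensembl gene. The counts are used as the authors deposited them, in 1 table of 47729 genes, and 47224 identifiers matched a symbol. Bases were called with CASAVA 1.8 and reads aligned with HISAT2 2.1.0 to mm10, per the submitters' processing notes; the counting program, annotation and use of strand are not given in the sources used here. Gene positions, overlaps and shared 31-base words were taken from GENCODE M21 (GRCm38), and promoters from RefSeq (GRCm38.p6).

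Genes that reached 1 CPM in 3 or more libraries were tested with edgeR 4.0.16 (limma 3.58.1, R 4.3.3), TMM scaling and robust quasi-likelihood tests, in an additive genotype and day model with 4 residual degrees of freedom, or 3 with the interaction. DESeq2 1.42.0, other scaling factors, no filter, fewer libraries and each day or population left out were the alternatives. Differences of single libraries used log2 CPM with a prior count of 2. Intervals are Clopper-Pearson at 95% and, like the floor of 3 counts, cover counting error only. The scripts were tested on simulated data.

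The 34 genes, the other lists and the tests were chosen with earlier results of these data known. All 34 are given; a value per library is printed for those called in any contrast, the 2 most abundant of each role group and those singled out after their values were seen (Ifit1, Isg15, Parp14, Mx2 and Rtp4). Of other lists, at most 3 called genes per list, contrast and direction are named, lowest adjusted p first, plus Ifnar1, Ifnar2, Jak1, Tyk2, Ifnb1, Irf3, Per1 and Per2; 1 further gene of that rule is not reported here.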

Additional observations from a re-analysis of the deposited data

Results flagged for a closer look

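Irf1 moved in opposite directions in WT and the knockouts. Both later WT libraries were below that of day 0 and all 4 later knockout libraries were above their own day 0. The fitted difference of the changes (knockouts minus WT) was 1.30 on the log2 scale, past the threshold (adjusted p = 0.0331), and the WT course rests on 96 to 278 counts per library.

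Rtp4 also moved in opposite directions in every library. The later WT libraries, at 0.546 and 1.32 CPM, were below day 0 at 1.41 CPM, while the knockouts were above their day 0 levels of 1.13 and 0.688 CPM. The fitted difference was 1.61 ± 0.78 (log2) and did not pass the test of the difference itself (adjusted p = 0.269). The WT values are 10, 3 and 6 counts.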

How the results depend on the processing

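Every called change of a listed gene kept its direction in the 133 refits run on them (19 changes), and 41 of those refits lost the call. In Per1KO against WT, where 2 genes were called, DESeq2 called 4, the 6 libraries alone 1, and leaving out a day 0 (without day 5) to 4 (without day 0). In Per2KO against WT, also 2, the 6 libraries alone gave 0 and leaving out a day 0 (without day 3 or day 5) to 4 (without day 0). On day 3 against day 0 leaving out a population gave 1 to 12 where the full fit gave 6, on day 5 against day 0 it gave 2 to 14 where the full fit gave 8, and on day 5 against day 3 it gave 0 to 3 where the full fit gave 0. The highest of each came without WT, where 7684, 8586 and 1393 of all 13324 genes passed in these contrasts. In the interaction, DESeq2 called 4 genes and the fit with no filter 3, where the main value was 1. Leaving out a day or a knockout, which was chosen after seeing the data, gave 0 (without day 3, without Per2KO) to 4 (without day 5). All-gene counts moved with these: in Per1KO against WT from 2575 to 780 without day 5 and 1391 with 6 libraries, and in Per2KO against WT from 2652 to 855 and 1263. With no filter the all-gene median shifted to 0.12 in Per1KO and 0.11 in Per2KO, and Mx2, Oasl1 and Usp18 were also called on days 3 and 5. The single-day counts and a prior count of 0.5 gave the same calls to within 1 gene. The causes were not tested. The genotype fits pair the libraries by day, and the labels give no replicate numbers for a further block. Depth limits WT most: a gene under 0.423 to 0.659 CPM there is within what a count of 0 allows.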
